A study of Homo sapiens with 12 samples.

Results

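The response to Delta-like ligand 4 (DLL4) was measured in TeloHAEC, endothelial cells of the human aorta that telomerase has made immortal, in which Cas9 and an sgRNA had been directed at NOTCH1 (the NKO line). NKO cells stood for 24 hours on plastic coated with DLL4 or with control IgG, each coating solution at 2.5 mg/mL, with 2 libraries per coating. These 4 libraries were chosen by line and coating alone, out of 12 in the series. The other 8 libraries come from a TSPAN14-targeted line (TKO) and a line labelled wild type (NT), each on DLL4 and on IgG with 2 libraries. All 3 lines share the TeloHAEC background, and polyadenylated RNA was prepared from 140 ng of total RNA. Each target has 1 line, and whether that line is a clone or a pool of edited cells is not given in the sources used here. A property of the NKO line and an effect of targeting NOTCH1 therefore cannot be told apart. The libraries are labelled biological replicates without further detail, so p-values measure the spread between these libraries, which may be technical.

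Notch receptors are cut after a ligand on a neighbouring surface pulls on them: ADAM10 sheds the outer part, gamma-secretase frees the intracellular part, and that part joins RBPJ and a Mastermind protein on DNA to switch on genes such as those of the HES and HEY repressor families. In endothelium, DLL4 and NOTCH1 restrain sprouting tip cells and favour arterial genes. NOTCH4 is a further endothelial receptor of this ligand, and NOTCH2 is expressed in many cell types.

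The deposited values are TPM, a transcript abundance relative to the sum of each library, which keep no record of depth. Log2(TPM + 1) of 13299 genes was compared, so a change here is a difference of that quantity (DLL4 minus IgG), given with the standard error of the fit, and it understates the change of genes near or below 1 TPM. A gene is called where limma's adjusted p was under 0.05. The fit took its spread from all 12 libraries, because 2 libraries per group leave too few degrees of freedom for a fit of 4 libraries. It assumes that a gene varies alike in all 6 groups. An exact permutation test of 2 libraries against 2 cannot go below 0.333. Pearson's r between the libraries of a group was 0.9874 to 0.9921. Of the 6 groups, IgG-coated NKO cells had the largest median SD between their libraries, 0.137 on the log2 scale. All 26 genes of an endothelial identity list passed the filter, among them PECAM1 (253 and 342 TPM on DLL4, 241 and 260 TPM on IgG) and CDH5 (317 and 329 TPM on DLL4, 381 and 341 TPM on IgG).

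NOTCH1 (chr9:136494433-136545786, minus strand, GRCh38) did not separate the coatings in NKO cells. Its level was 16.5 and 19.5 TPM on DLL4, against 19.2 and 15.6 TPM on IgG, and the ranges overlapped (change 0.05 ± 0.16, limma adjusted p = 0.979). On IgG, the NKO libraries also lay beside the NT libraries (17.8 and 19.6 TPM). A Cas9 edit need not lower the mRNA of its target, and these values hold no measure of protein or of the edit, so NOTCH1 mRNA does not check the label of the line. In NT cells NOTCH1 was called higher on DLL4 (31.5 and 24.7 TPM on DLL4, 17.8 and 19.6 TPM on IgG, limma adjusted p = 0.0405), but the NKO change minus the NT change was not called (-0.50, limma adjusted p = 0.389). TSPAN14, which encodes a tetraspanin partner of ADAM10, had 174 and 177 TPM on DLL4 and 201 and 179 TPM on IgG in NKO cells and was not called (limma adjusted p = 0.822).

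The other receptors were transcribed at lower levels. NOTCH2 had 8.40 and 6.71 TPM on DLL4 and 9.59 and 6.63 TPM on IgG, and NOTCH4 had 2.99 and 1.43 TPM on DLL4 and 1.18 and 1.74 TPM on IgG. Both receptors overlapped between the coatings and neither was called. NOTCH3 stayed at or below 0.267 TPM in all 4 NKO libraries and failed the filter. Of the ligands, JAG1 had 39.6 and 37.8 TPM on DLL4 and 46.7 and 31.1 TPM on IgG, while DLL1, DLL3 and JAG2 stayed at or below 3.30 TPM, and none of these 4 was called. None of 38 tested genes of ligand processing and of the nuclear complex was called either, near the background of 0.782% of all genes, including ADAM10 (123 and 142 TPM on DLL4, 130 and 108 TPM on IgG) and RBPJ (10.2 and 10.4 TPM on DLL4, 13.1 and 8.85 TPM on IgG).

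On DLL4, NKO cells changed 104 of 13299 genes (0.782%), with 68 higher (0.511%) and 36 lower (0.271%). The higher genes included the lysosomal transporter SLC46A3, the Notch targets HES4 and HES1, the protease-activated receptors F2RL1 and F2R, the lipase inhibitor ANGPTL4 and the cytokines IL1B and CCL2. The lower genes included the metal-binding metallothionein MT2A, the activin antagonist FST, the survival factor BCL2A1 and the tip-cell marker ESM1. Changes reached at least 2-fold in 23 of the higher and 16 of the lower genes, the median size over all 104 was 0.872, and 92 of the 104 are protein coding in GENCODE 29. The libraries of the coatings did not overlap at any of the 104 genes. Without overlap there were 2509 genes higher (18.9%) and 2011 lower (15.1%) among all genes tested, most of which did not pass the test.

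The count of calls rested on single libraries and on the pooled spread. Leaving out DLL4 library 1, DLL4 library 2, IgG library 1 or IgG library 2 gave 79, 37, 43 or 85 calls, and 32 genes (24 higher, 8 lower) were called in the full set and in all 4 reduced sets. Fitted by themselves, the 4 NKO libraries gave 0 limma calls, with 865 at an unadjusted p under 0.05, against 1221 in the fit of all 12 libraries. The entry KPNA2P2, a pseudogene, took 0.28% and 1.783% of the total on DLL4 and 1.143% and 3.646% on IgG. Leaving it out and rescaling gave 117 calls, 99 of them among the 104.

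**Figure D1:**
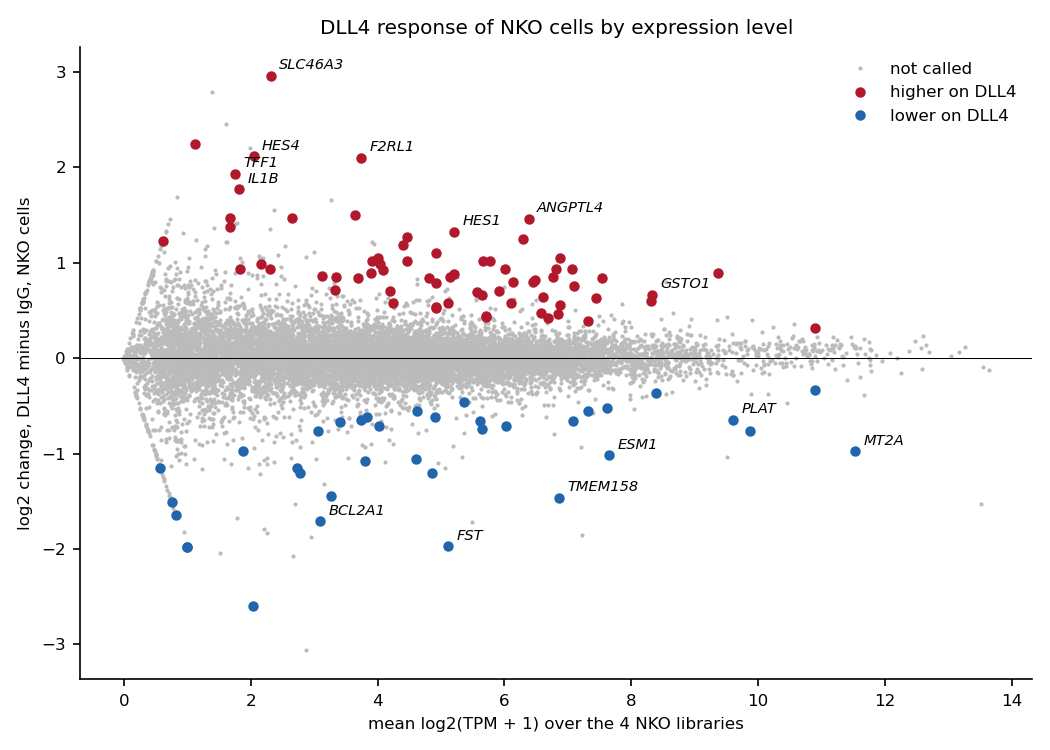
Each point is 1 of 13299 genes, with the mean log2(TPM + 1) of the 4 NKO libraries on the x axis and the change on DLL4 against IgG on the y axis; coloured points are the 68 genes called higher and the 36 called lower. SLC46A3 stands highest on the y axis among protein-coding genes, and FST and MT2A stand among the lower genes.

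Of 27 listed Notch target genes, 23 were tested, and 5 rose in NKO cells on DLL4 (HES4, HES1, HEY2, DLL4 and FLT1) while 0 fell. The calls were 21.7% of the 23, beside 0.511% of all genes called higher and 0.271% lower. Without overlap, 12 (52.2%) were higher and 5 (21.7%) lower, beside 18.9% and 15.1% of all genes. The median change of the 23 was 0.21, beside 0.01 over all genes tested. In the same list 9 rose and 1 fell in TKO cells, where 4.11% of all genes were called higher and 2.41% lower, and 13 rose and 5 fell in NT cells, where 7.68% of all genes were called higher and 8.34% lower.

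HES1, a repressor that is a direct Notch target in many tissues, had 51.8 and 63.5 TPM on DLL4, against 19.8 and 25.0 TPM on IgG. Both DLL4 libraries stood above both IgG libraries, and HES1 rose by 1.33 ± 0.12 (limma adjusted p = 0.00107). HES4, a related repressor, had 6.28 and 9.19 TPM on DLL4, against 0.706 and 1.32 TPM on IgG. The HES4 ranges lay far apart (change 2.12 ± 0.19, limma adjusted p = 0.000952), and both repressors were called with any 1 of the 4 libraries left out.

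The other 3 calls among the targets rested on more of the libraries. DLL4 itself, which DLL4-Notch signalling raises in endothelial cells, had 9.75 and 11.9 TPM on DLL4 and 5.33 and 5.63 TPM on IgG (change 0.86 ± 0.13, limma adjusted p = 0.0106). Its call ended without DLL4 library 2 (limma adjusted p = 0.128) or IgG library 1 (limma adjusted p = 0.0987). HEY2, a repressor linked to arterial fate, had 23.2 and 21.1 TPM on DLL4 and 15.6 and 13.4 TPM on IgG (change 0.58 ± 0.11, limma adjusted p = 0.0398). FLT1, which encodes a VEGF receptor that acts as a decoy, had 42.5 and 40.5 TPM on DLL4 and 29.8 and 25.1 TPM on IgG (change 0.58 ± 0.11, limma adjusted p = 0.0365). Neither gene overlapped between the coatings, yet each lost its call whichever library was left out, with limma adjusted p up to 0.226 for HEY2 and up to 0.195 for FLT1, both without DLL4 library 1.

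Other targets gave no call. HEY1 had 2.41 and 2.52 TPM on DLL4 and 1.88 and 1.53 TPM on IgG (limma adjusted p = 0.672), and NRARP, which encodes a feedback inhibitor of Notch, had 11.7 and 16.2 TPM on DLL4 and 9.44 and 11.1 TPM on IgG (limma adjusted p = 0.631). The cell cycle gene CCND1 was on the lower side, with 137 and 138 TPM on DLL4 and 222 and 188 TPM on IgG (change -0.57 ± 0.13, limma adjusted p = 0.0868). The arterial ligand EFNB2 stayed at or below 0.131 TPM in all 4 NKO libraries, the arterial connexin GJA4 at or below 0.0486 TPM, and HES5 and HEYL were listed at 0 in all 4.

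**Figure D2:**
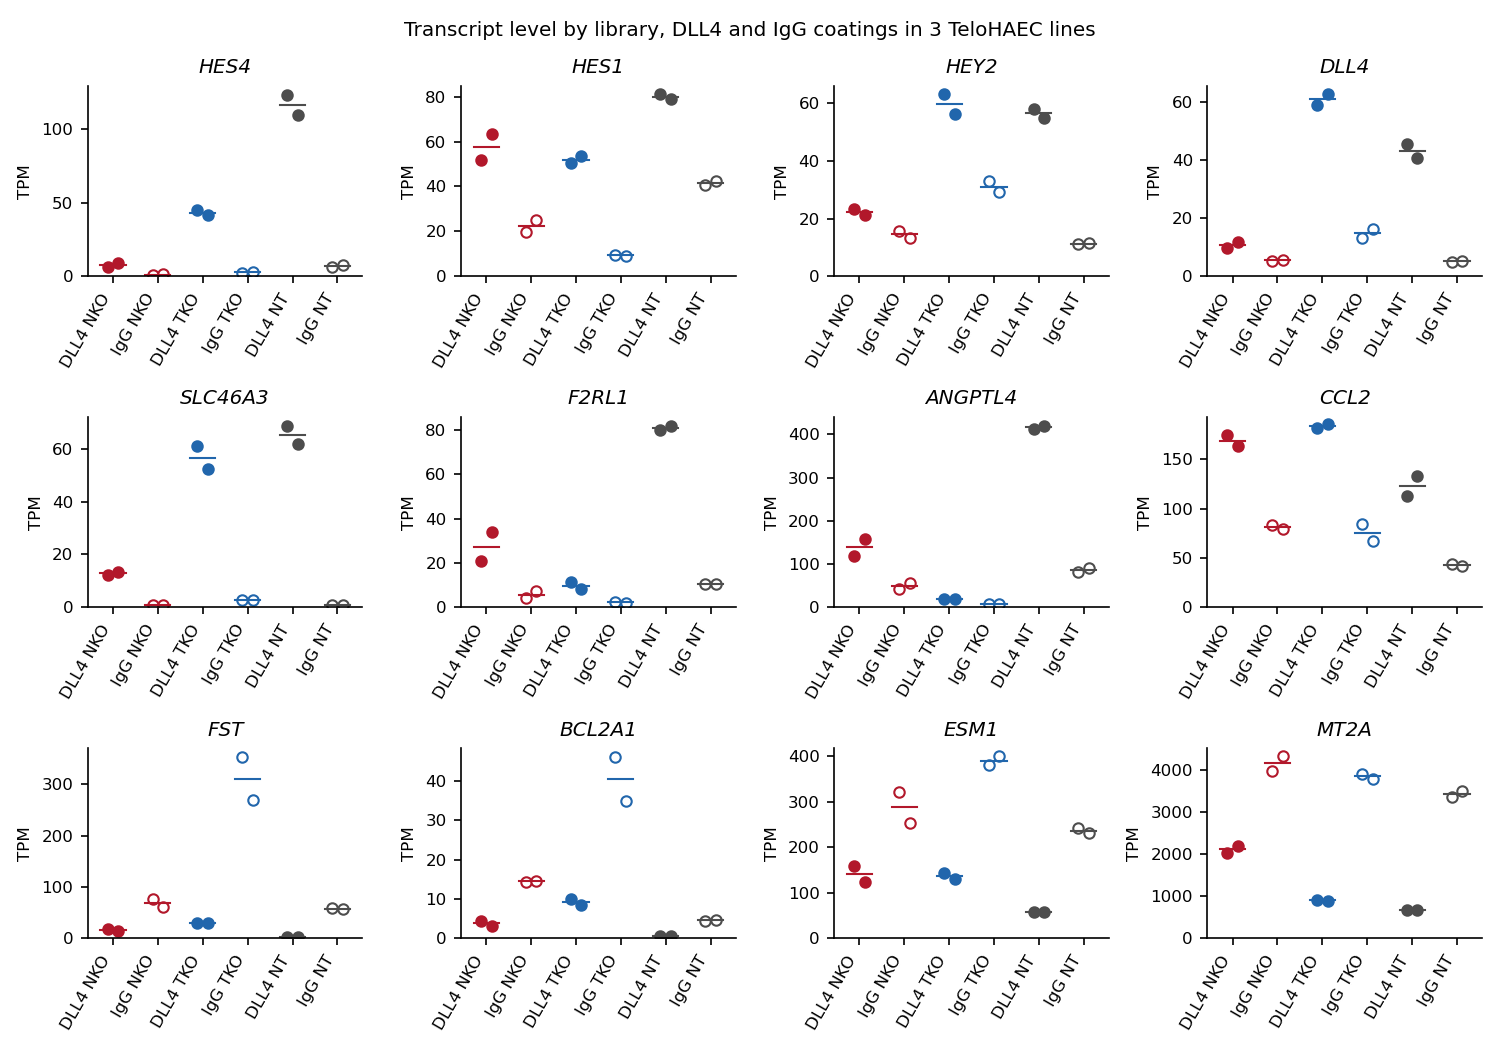
TPM per library for 12 genes, on linear axes that start at 0, with filled points for DLL4 and open points for IgG, the groups ordered as NKO, TKO and NT, and a line at each mean of 2 libraries. In NKO cells both DLL4 libraries stand above both IgG libraries at SLC46A3, HES4 and HES1 and below them at FST and MT2A.

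The promoters of the 3 HES and HEY genes that rose are printed because RBPJ, the DNA-binding partner of the Notch intracellular part, recognises the core motif TGGGAA. EFNB2 is shown beside them as a Notch target that stayed below 1 TPM in NKO cells, SLC46A3 and FST as the protein-coding genes with the largest rise and the largest fall there. Sequences are from RefSeq (GRCh38.p14), from 250 bases before the gene's start to 50 after it, read along the gene's strand, with capitals on TGGGAA or on its reverse complement TTCCCA. They lie at chr1:1000048-1000347 (minus strand) for HES4, chr3:194135898-194136197 (plus strand) for HES1, chr6:125749382-125749681 (plus strand) for HEY2, chr13:106535613-106535912 (minus strand) for EFNB2, chr13:28718921-28719220 (minus strand) for SLC46A3 and chr5:53480379-53480678 (plus strand) for FST.
HES4: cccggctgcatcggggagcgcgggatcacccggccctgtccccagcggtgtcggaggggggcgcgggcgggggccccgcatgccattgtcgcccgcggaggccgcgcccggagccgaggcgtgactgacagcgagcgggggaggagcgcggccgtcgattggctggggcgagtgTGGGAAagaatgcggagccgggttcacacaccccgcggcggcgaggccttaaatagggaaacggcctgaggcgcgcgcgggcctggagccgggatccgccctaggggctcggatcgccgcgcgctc
HES1: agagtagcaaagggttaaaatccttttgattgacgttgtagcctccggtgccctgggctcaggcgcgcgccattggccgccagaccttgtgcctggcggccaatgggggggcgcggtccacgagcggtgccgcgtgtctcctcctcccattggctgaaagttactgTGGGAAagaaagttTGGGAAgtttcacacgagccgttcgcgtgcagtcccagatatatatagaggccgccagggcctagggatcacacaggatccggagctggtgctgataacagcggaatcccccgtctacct
HEY2: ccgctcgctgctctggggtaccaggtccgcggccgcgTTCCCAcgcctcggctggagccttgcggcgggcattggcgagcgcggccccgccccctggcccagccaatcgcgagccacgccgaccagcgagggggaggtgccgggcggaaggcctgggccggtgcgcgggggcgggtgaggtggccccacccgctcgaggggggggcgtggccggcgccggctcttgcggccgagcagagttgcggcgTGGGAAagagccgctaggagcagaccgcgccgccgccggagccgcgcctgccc
EFNB2: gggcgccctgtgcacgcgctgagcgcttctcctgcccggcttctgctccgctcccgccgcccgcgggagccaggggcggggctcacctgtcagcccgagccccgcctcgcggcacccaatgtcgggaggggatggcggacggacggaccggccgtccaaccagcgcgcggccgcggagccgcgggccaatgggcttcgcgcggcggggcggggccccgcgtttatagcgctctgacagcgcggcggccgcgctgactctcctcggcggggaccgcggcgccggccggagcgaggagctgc
SLC46A3: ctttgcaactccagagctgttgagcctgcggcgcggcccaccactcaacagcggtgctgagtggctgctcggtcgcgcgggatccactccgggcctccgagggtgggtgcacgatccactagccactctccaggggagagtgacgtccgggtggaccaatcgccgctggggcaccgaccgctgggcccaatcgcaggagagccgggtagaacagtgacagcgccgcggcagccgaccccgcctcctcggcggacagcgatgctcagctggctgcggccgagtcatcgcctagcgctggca
FST: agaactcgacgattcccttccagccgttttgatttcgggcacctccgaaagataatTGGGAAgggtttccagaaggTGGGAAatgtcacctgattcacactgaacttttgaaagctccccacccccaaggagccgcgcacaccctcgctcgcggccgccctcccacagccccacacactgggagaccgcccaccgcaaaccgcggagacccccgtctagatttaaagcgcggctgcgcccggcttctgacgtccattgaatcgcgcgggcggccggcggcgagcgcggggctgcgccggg

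The HES1 window holds 2 matches on the same strand with 8 bases between them, the HES4 window holds 1, the HEY2 window holds 2 on opposite strands, and the EFNB2 window holds 0. The match did not follow the direction of change: the windows of SLC46A3, DLL4 and F2RL1, which rose, hold 0, and that of FST, which fell, holds 2 on the same strand with 14 bases between them. Searched on both strands, the motif occurs in 24.3% of all 27305 promoters of the table and in 21.8% of the 9642 found for tested genes. Promoters were found for 49 of the 68 genes that rose, of which 11 (22.4%) hold a match, and for 22 of the 36 that fell, of which 7 (31.8%) hold one. A match describes the letters in these windows and is not a measured binding site.

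SLC46A3, which encodes a lysosomal membrane transporter, had the smallest p of the response. It had 12.4 and 13.4 TPM on DLL4, against 0.844 and 0.721 TPM on IgG. The coatings were far apart, with a rise of 2.96 ± 0.12 (limma adjusted p = 1.36e-06). F2RL1, a protease-activated receptor opened by trypsin-like proteases, had 20.8 and 34.1 TPM on DLL4 and 4.08 and 7.15 TPM on IgG (change 2.10 ± 0.25, limma adjusted p = 0.00275). F2R, the thrombin receptor of the same family, had 242 and 256 TPM on DLL4 and 143 and 134 TPM on IgG (change 0.84 ± 0.10, limma adjusted p = 0.0018), so the rise was seen at an abundant and at a less abundant family member.

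IL1B, an inflammatory cytokine, had 6.16 and 4.97 TPM on DLL4 and 1.29 and 0.604 TPM on IgG (change 1.77 ± 0.23). GDF3, a ligand of the TGF-beta family, had 17.1 and 23.4 TPM on DLL4 and 6.40 and 6.43 TPM on IgG (change 1.5 ± 0.19), and ANGPTL4, an inhibitor of lipoprotein lipase, had 119 and 158 TPM on DLL4 and 42.3 and 57.2 TPM on IgG (change 1.46 ± 0.15). CCL2, a chemokine that attracts monocytes, had 175 and 163 TPM on DLL4 and 82.9 and 79.5 TPM on IgG (change 1.05 ± 0.11). These 4 genes were called in every reduced set, none overlapped between the coatings, and their limma adjusted p lay between 0.00136 (ANGPTL4 and CCL2) and 0.00399 (IL1B).

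The other genes that rose in every reduced set follow. NID2, a nidogen of the basement membrane, had 34.9 and 27.4 TPM on DLL4 and 14.6 and 11.6 TPM on IgG (change 1.19 ± 0.16). NTN4, a netrin of the basement membrane, rose by 0.94 ± 0.10, the heparan sulphate proteoglycan GPC1 by 0.93 ± 0.11, and the endothelial lectin CLEC14A by 0.76 ± 0.08. The serotonin receptor HTR1D rose by 1.05 ± 0.11, with 21.4 and 22.9 TPM on DLL4 and 10.2 and 10.1 TPM on IgG. The protease inhibitors SERPINB1 (1.02 ± 0.11) and SERPINB9 (1.02 ± 0.12), the polyamine-acetylating enzyme SAT1 (1.02 ± 0.12), the kinase PLK2 (0.93 ± 0.11), the ERK phosphatase DUSP6 (0.80 ± 0.10) and the glutathione transferase GSTO1 (0.67 ± 0.07) rose as well. TPPP3 (0.85 ± 0.08), NREP (0.80 ± 0.09), PMP22 (0.60 ± 0.08) and the pseudogene CASP17P (1.47 ± 0.15) completed the set. Limma adjusted p over the genes of these sentences was at most 0.00541 (NID2).

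Larger changes with less support were also present. TFF1, a secreted trefoil peptide, had 5.09 and 6.15 TPM on DLL4 and 0.852 and 0.604 TPM on IgG (change 1.94 ± 0.30, limma adjusted p = 0.0132), but was not called with any 1 of the 4 libraries left out (limma adjusted p 0.0538 to 0.128). The phospholipid scramblase PLSCR4 (1.27 ± 0.18) kept its call only without DLL4 library 1, and the ligand TGFB2 (1.38 ± 0.23) likewise. DIPK2B (1.25 ± 0.17) and the ephrin EFNA1 (1.02 ± 0.15) lost it without DLL4 library 2 (limma adjusted p = 0.0882 and 0.0887) or IgG library 1 (limma adjusted p = 0.092 and 0.0815). For PLSCR4 and TGFB2 the limma adjusted p reached 0.108 and 0.162 without DLL4 library 2.

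MT2A, a metallothionein that binds zinc and copper, had the smallest p among the genes that fell. It had 2026 and 2192 TPM on DLL4, against 3977 and 4329 TPM on IgG. The coatings were separated by far more than the libraries within them, with a fall of 0.98 ± 0.06 (change -0.98, limma adjusted p = 7.29e-05). FST, which encodes follistatin, an antagonist of activins, had 18.6 and 14.8 TPM on DLL4 and 76.3 and 60.02 TPM on IgG (change -1.97 ± 0.15, limma adjusted p = 0.000281). BCL2A1, an NF-kB-induced survival factor of the BCL2 family, had 4.46 and 3.09 TPM on DLL4 and 14.4 and 14.5 TPM on IgG (change -1.71 ± 0.17, limma adjusted p = 0.00136). All 3 genes were without overlap and were called in every reduced set.

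ESM1, a proteoglycan that marks tip cells, had 159 and 125 TPM on DLL4 and 323 and 252 TPM on IgG (change -1.02 ± 0.13, limma adjusted p = 0.00344). PLAT, the tissue plasminogen activator, had 646 and 602 TPM on DLL4 and 1011 and 940 TPM on IgG (change -0.64 ± 0.07, limma adjusted p = 0.00162). The transcription factor MAFF (-0.74 ± 0.08) and the adaptor SH2D2A (-1.15 ± 0.13) completed the protein-coding genes that fell in every reduced set. TMEM158 (-1.46 ± 0.20), the semaphorin SEMA7A (-1.20 ± 0.17), the sterol carrier GRAMD1B (-1.08 ± 0.15) and the chromatin protein HMGA1 (-0.77 ± 0.10) fell too, but lost their calls without IgG library 1 (limma adjusted p 0.0539 to 0.092). The last 3 of these also lost them without DLL4 library 2 (limma adjusted p 0.0642 to 0.0883). CLDN5, the tight-junction claudin of endothelium, had 15.1 and 16.7 TPM on DLL4 and 34.9 and 33.4 TPM on IgG (change -1.06 ± 0.16, limma adjusted p = 0.00967), yet gave no call in any reduced set (limma adjusted p 0.0548 to 0.104).

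**Figure D3:**
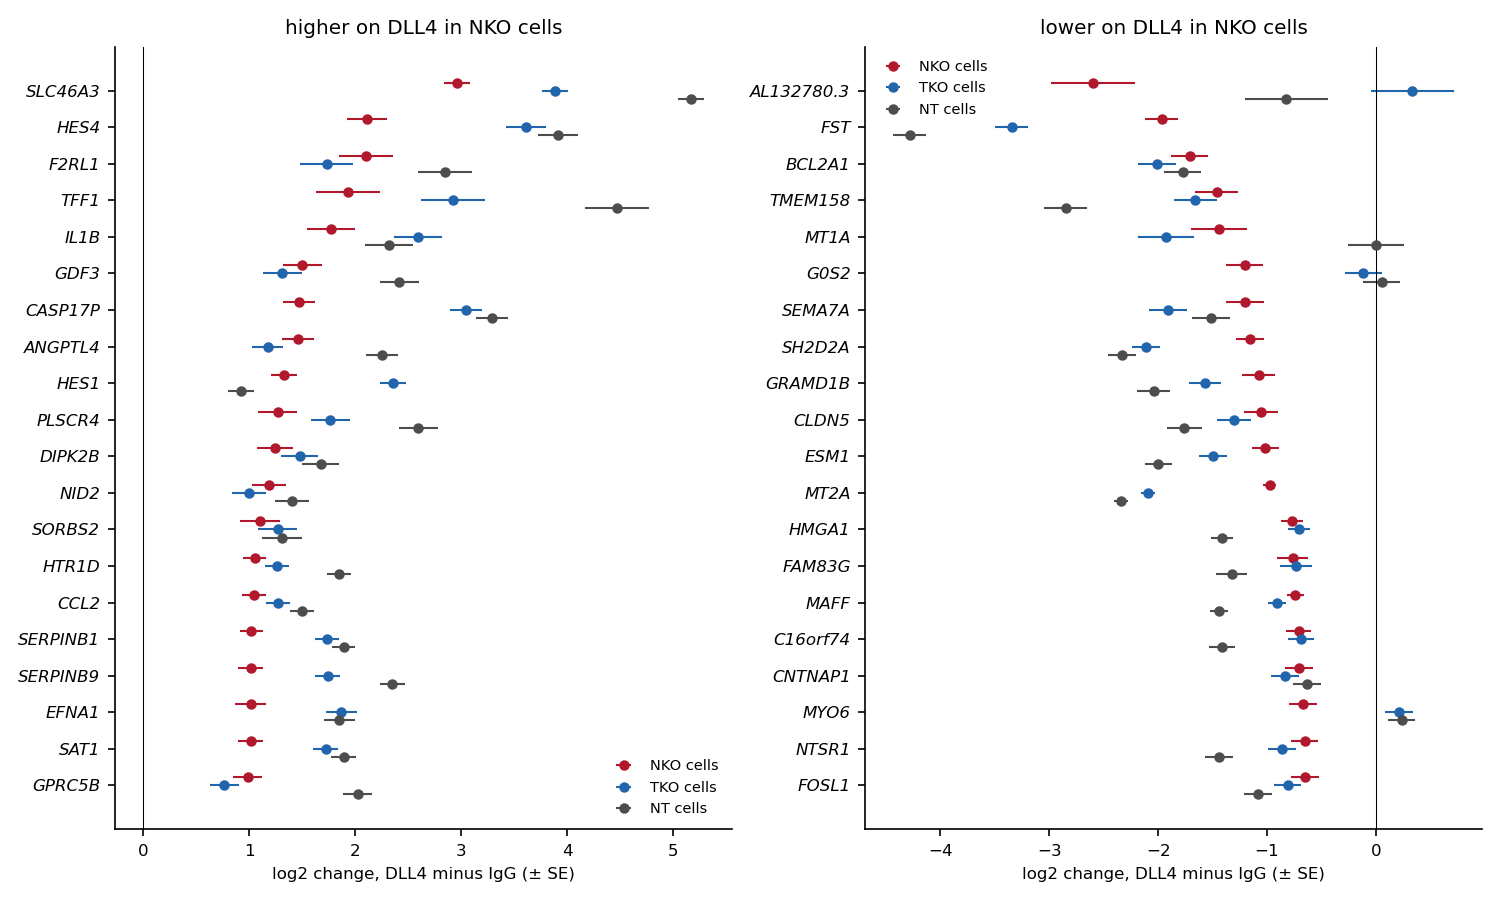
Changes on DLL4 against IgG with standard errors for the 20 genes with the largest rise and the 20 with the largest fall among those called in NKO cells and averaging 5 TPM or more in a group, with the same genes in TKO and NT cells beside them. SLC46A3 leads the rises with 2.96 in NKO cells and lies at 3.88 in TKO cells and 5.16 in NT cells; FST leads the falls of protein-coding genes with -1.97, -3.35 and -4.28 in the same lines.

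Beside the 0.782% of all genes called in NKO cells, the lists of endothelial subtypes had 8.33% (arterial), 14.3% (venous and lymphatic), 16.7% (tip cell and VEGF) and 7.69% (identity) of their tested members called, from 1 to 4 genes each, with DLL4 and FLT1 on several of the lists. Of 24 tested arterial genes, DLL4 and HEY2 rose and 0 fell (median change 0.07). In TKO cells 6 rose and 1 fell (29.2% called, beside 6.51% of all genes), and in NT cells 15 rose and 2 fell (70.8%, beside 16.0%). LYVE1, a hyaluronan receptor of lymphatic endothelium, was the 1 gene called among 7 venous and lymphatic genes, with 71.1 and 82.3 TPM on DLL4 and 44.5 and 48.5 TPM on IgG. It rose by 0.71 ± 0.11 (limma adjusted p = 0.0107) but lost the call without DLL4 library 2 (limma adjusted p = 0.128) or IgG library 1 (limma adjusted p = 0.12). Of 24 tip-cell and VEGF genes, DLL4 and FLT1 rose and ESM1 and PLAUR, the urokinase receptor, fell, PLAUR without a call when DLL4 library 2 (limma adjusted p = 0.209) or IgG library 1 (limma adjusted p = 0.195) was left out. Of the 26 endothelial identity genes, FLT1 rose and CLDN5 fell, and the summed level of the list was 4320 and 4720 TPM on DLL4 and 4700 and 4930 TPM on IgG.

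Of 23 activin, follistatin and BMP genes, FST was the only one called (4.35%, beside 0.782% of all genes). Of 23 genes of interleukin 1 and NF-kB signalling, IL1B and CCL2 rose and BCL2A1 fell (13.0% called, beside 0.782% of all genes). The median change was 0.01, equal to that of all genes. Without overlap, 9 (39.1%) were lower and 5 (21.7%) higher, beside 15.1% and 18.9% of all genes. In bulk RNA, fewer cells of a type and less RNA per cell cannot be told apart.

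The interferon response list moved little per gene. Of its 49 tested members, 42 (85.7%) had a positive change, beside 52.6% of all genes, and 21 (42.9%) were without overlap on the higher side and 0 on the lower, beside 18.9% and 15.1% of all genes. The median change was 0.18, and only PSMB9, a subunit of the immunoproteasome, was called (3.78 and 4.08 TPM on DLL4, 1.36 and 1.82 TPM on IgG, change 0.93 ± 0.18, limma adjusted p = 0.04). This call was 2.04% of the tested members, beside 0.782% of all genes. That call ended whichever library was left out (limma adjusted p 0.0679 to 0.259). B2M, the light chain of MHC class I, had 1740 and 1699 TPM on DLL4 and 1391 and 1294 TPM on IgG without a call (limma adjusted p = 0.133), and the antiviral sensor OAS1 had 4.59 and 9.52 TPM on DLL4 and 2.77 and 3.91 TPM on IgG (limma adjusted p = 0.315). In NT cells the list had 5 genes up and 2 down (14.3% called, near the 16.0% of all genes) and a median change of 0.09. In TKO cells it had 7 up and 0 down (14.3% called, beside 6.51% of all genes) and a median change of 0.32.

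In the list of extracellular matrix and basement membrane, 2 of 38 tested genes rose (NID2 and the fibronectin gene FN1) and 0 fell. These calls were 5.26% of the tested members, beside 0.782% of all genes. Without overlap, 18 (47.4%) were higher and 4 (10.5%) lower, beside 18.9% and 15.1% of all genes, and the median change was 0.16. In the mesenchymal list of TGF-beta and YAP targets, 2 of 31 rose (TGFB2 and FN1) and 0 fell (6.45% called, beside 0.782% of all genes). Without overlap, 15 (48.4%) were higher and 0 lower, beside 18.9% and 15.1% of all genes, and the median change was 0.18. FN1 had 981 and 820 TPM on DLL4 and 559 and 415 TPM on IgG (change 0.90 ± 0.17, limma adjusted p = 0.0365), and of the reduced sets only that without IgG library 1 called it (limma adjusted p = 0.0451). The collagen gene COL4A1 had 453 and 497 TPM on DLL4 and 351 and 330 TPM on IgG without a call (limma adjusted p = 0.0832). Of markers defining smooth muscle and fibroblasts, 10 of 12 failed the filter, DES and LUM were listed at 0 in all 4 NKO libraries, and the summed level of the 12 was 17.3 and 14.8 TPM on DLL4 and 14.8 and 12.3 TPM on IgG.

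Of 31 tested immediate early and stress genes, DUSP6 rose and MT2A and the AP-1 subunit FOSL1 fell (9.68% called, beside 0.782% of all genes). Without overlap, 13 (41.9%) were lower and 4 (12.9%) higher, beside 15.1% and 18.9% of all genes, and the median change was -0.15. The summed level of that list was 5840 and 5970 TPM on DLL4 and 7970 and 8300 TPM on IgG, of which MT2A alone supplied 2026 and 2192 TPM on DLL4 and 3977 and 4329 TPM on IgG. A second metallothionein, MT1X, had 36.0 and 36.9 TPM on DLL4 and 57.9 and 51.2 TPM on IgG without a call (change -0.56 ± 0.12, limma adjusted p = 0.0773). MT1A was called lower, with 6.01 and 3.82 TPM on DLL4 and 18.5 and 11.8 TPM on IgG (change -1.44 ± 0.26, limma adjusted p = 0.0298), but not without DLL4 library 2 (limma adjusted p = 0.248) or IgG library 1 (limma adjusted p = 0.223). Metallothionein genes are close in sequence, so the split of their reads is uncertain. FOSL1 (-0.65 ± 0.13, limma adjusted p = 0.0461) kept its call only without DLL4 library 1.

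None of 47 proliferation genes was called in NKO cells (median change -0.06). At 0.782% of all genes called, a list of this size would hold few or no calls, so the 0 is near the background. A positive change was found at 12 of the 47 (25.5%), beside 52.6% of all genes. Without overlap, 13 (27.7%) were lower and 4 (8.51%) higher, beside 15.1% and 18.9% of all genes. In the same list 0 rose and 2 fell in TKO cells (4.26% called, beside 2.41% of all genes lower), and 0 rose and 24 fell in NT cells (51.1% called, beside 8.34% of all genes lower). None of 34 genes of the ATF4 and unfolded protein response and none of 29 sterol synthesis genes was called either, again near the background. Of 30 p53 target genes, PLK2 rose and 0 fell (3.33% called, beside 0.782% of all genes), with a median change of 0.09. Without overlap, 14 (46.7%) were higher and 2 (6.67%) lower, beside 18.9% and 15.1% of all genes.

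**Figure D4:**
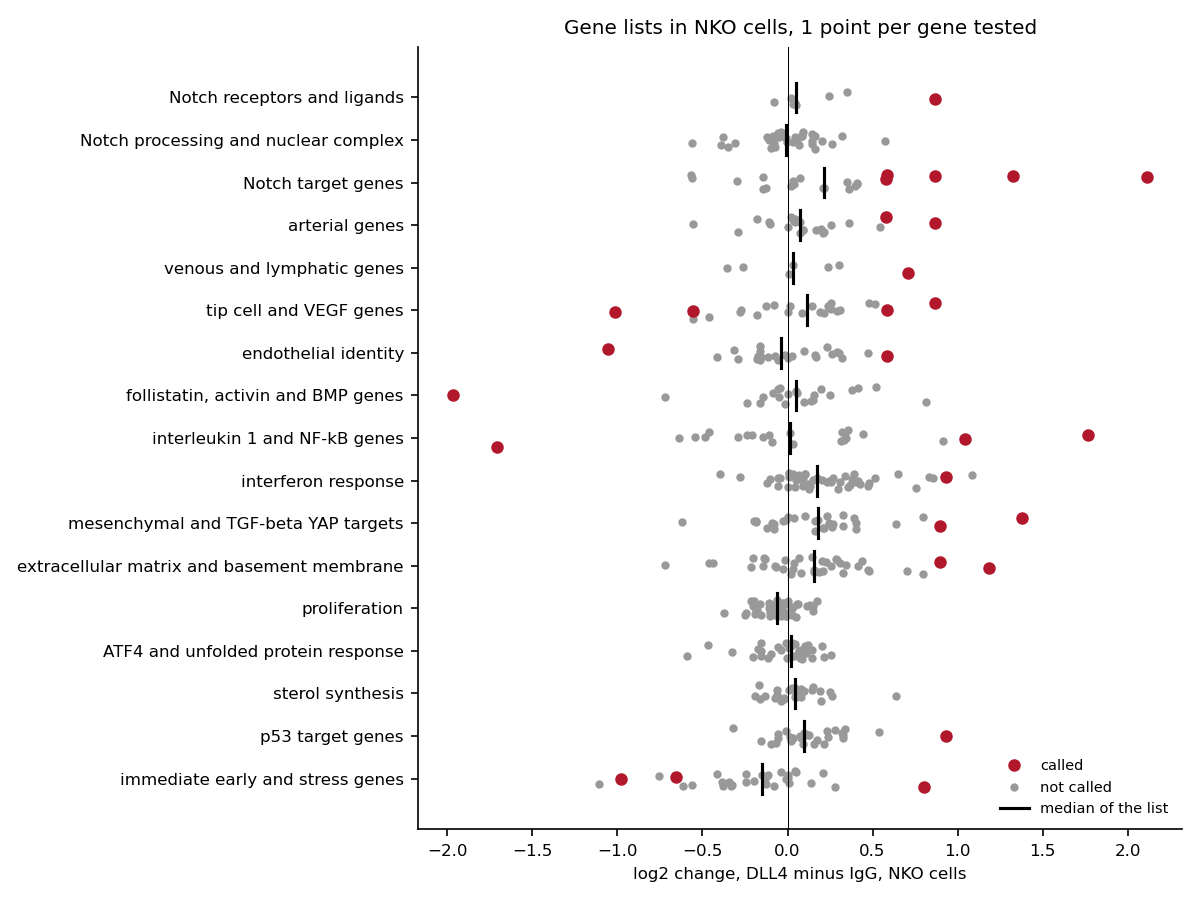
Each point is a tested gene of 1 of 17 lists, placed by its change on DLL4 against IgG in NKO cells; red points are called and the bar is the median of the list. The medians of the interferon, mesenchymal, matrix and Notch target lists lie between 0.16 and 0.21, that of the immediate early and stress list lies at -0.15, and between 0 and 5 members of a list are called.

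The NKO response was next set beside the response of NT cells, with which it shares no library, although both came from the fit with 1 pooled spread. In NT cells 2130 genes were called (16.0%), and in TKO cells 866 (6.51%). Of the 104 NKO calls, 88 (84.6%) were called in the same direction in NT cells, 60 of the 68 higher and 28 of the 36 lower, and 0 in the opposite one. The 88 are 4.13% of the NT calls. TKO cells called 89 of the 104 in the same direction (85.6%, and 10.3% of the TKO calls), and 85 genes (59 higher, 26 lower) were called alike in all 3 lines. Of the 32 genes stable against leaving out a library, 31 were also called in the same direction in NT cells.

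At the 88 shared genes the NKO change was smaller than the NT change in 79, with a median of 62.8% of it on the log2 scale and a range of 25.9% to 143.3%. These genes were selected on a called change in both lines, so that share describes the called genes and not the whole response. Read from the NT side, the 1021 genes called higher in NT cells had a median change of 0.23 in NKO cells and 0.68 in NT cells, with 935 (91.6%) positive in NKO cells and 60 called. The 1109 genes called lower in NT cells had a median change of -0.13 in NKO cells and -0.51 in NT cells, with 931 (83.9%) negative in NKO cells and 28 called. Of all genes tested, 52.6% were positive in NKO cells, 0.511% were called higher and 0.271% were called lower. Among the 39 genes that rose by more than 4-fold in NT cells the medians were 0.88 in NKO cells and 2.43 in NT cells, and 17 were called in NKO cells. Selection on the NT change raises the NT medians in turn.

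**Figure D5:**
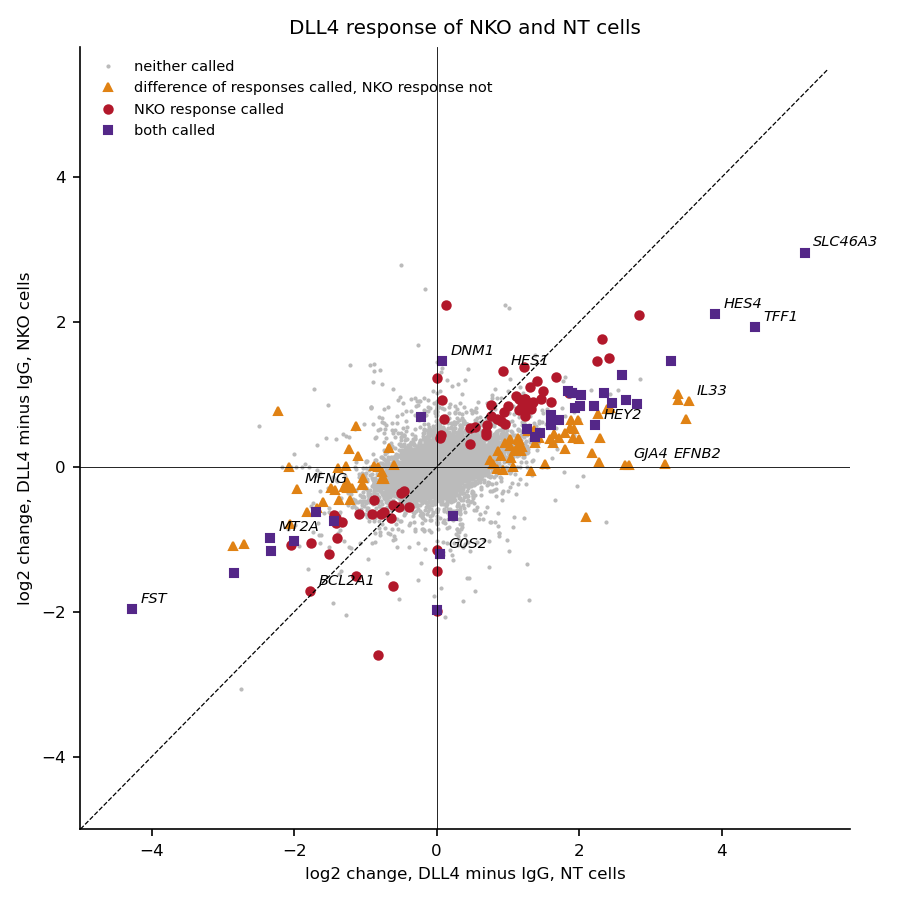
Change on DLL4 against IgG in NKO cells (y axis) against that in NT cells (x axis), 1 point per gene, with red circles for genes called in NKO cells, purple squares where the difference of the changes was called too, orange triangles where only that difference was called, grey points for the rest, and a dashed line of equal change. Most called genes lie on the same side of 0 in both lines and nearer to 0 in NKO cells: FST lies at -1.97 in NKO cells and -4.28 in NT cells, SLC46A3 at 2.96 and 5.16, while HES1 lies at 1.33 and 0.93.

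The NKO change minus the NT change was called at 118 genes (0.887%), 42 higher (0.316%) and 76 lower (0.571%), and 26 of them were called with any 1 of the 8 libraries of these lines left out. EFNB2, the arterial ligand named above, had 0.0158 and 0.131 TPM on DLL4 and 0.0262 and 0.0660 TPM on IgG in NKO cells, against 11.8 and 10.4 TPM on DLL4 and 0.274 and 0.344 TPM on IgG in NT cells. The NKO libraries thus stayed at or below 0.131 TPM on both coatings, and the difference of the changes was -3.17 (limma adjusted p = 0.000405). GJA4 had at most 0.0486 TPM on either coating in NKO cells, against 6.42 and 4.27 TPM on DLL4 and 0 and 0 TPM on IgG in NT cells (difference -2.61, limma adjusted p = 0.00276). In TKO cells GJA4 also stayed at or below 0.106 TPM on both coatings. GJA4 passed the filter only through the DLL4 libraries of the NT line, where it is high, so its called difference adds no support beyond these levels. EFNB2 likewise passed the filter only through the NT and TKO lines, and its called difference carries the same limit. Among the Notch targets that did rise in NKO cells, the rise was smaller than in NT cells for DLL4 (difference -1.95, limma adjusted p = 0.000843), HEY2 (-1.65, limma adjusted p = 0.000843), HES4 (-1.79, limma adjusted p = 0.0131) and FLT1 (-1.02, limma adjusted p = 0.0144). HES4 averaged 1.01 TPM on IgG in NKO cells and 6.85 TPM in NT cells. Its NKO rise is therefore understated more by log2(TPM + 1), which enlarges its difference. The DLL4 and HEY2 differences were called whichever of the 8 libraries was left out, those of HES4 and FLT1 in 5 and 4 of the 8 reduced sets, with limma adjusted p up to 0.0842 without DLL4 library 2 of the NT line.

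HES1 gave no called difference. Its change was 1.33 ± 0.12 in NKO cells, 2.36 ± 0.12 in TKO cells and 0.93 ± 0.12 in NT cells, and neither the difference from NT (0.40 ± 0.17, limma adjusted p = 0.36) nor that from TKO (-1.03, limma adjusted p = 0.0624) was called. On IgG, HES1 stood at 19.8 and 25.0 TPM in NKO cells, 9.58 and 9.07 TPM in TKO cells and 40.7 and 42.6 TPM in NT cells, so the lines began from different levels. BCL2A1 also had changes close in size, -1.71 ± 0.17 in NKO cells and -1.78 ± 0.17 in NT cells, with a difference of 0.07 ± 0.24 (limma adjusted p = 0.944).

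Of genes that fell, FST (difference 2.31, limma adjusted p = 0.000843) and MT2A (1.36, limma adjusted p = 0.000171) fell less in NKO than in NT cells, with changes of -4.28 and -2.34 in NT cells. MFNG, which encodes a glycosyltransferase that modifies Notch receptors, had 102 and 106 TPM on DLL4 and 124 and 133 TPM on IgG in NKO cells, against 31.5 and 27.6 TPM on DLL4 and 113 and 123 TPM on IgG in NT cells. It was called in NT but not in NKO cells, and the difference of 1.66 was called (limma adjusted p = 0.000405). MFNG was not called in TKO cells either, with 149 and 132 TPM on DLL4 and 144 and 133 TPM on IgG (change 0.02). Its NKO change minus its TKO change was not called (-0.33, limma adjusted p = 0.789). IL33, an alarmin of the interleukin 1 family, had 1.77 and 1.73 TPM on DLL4 and 0.657 and 0.288 TPM on IgG in NKO cells (limma adjusted p = 0.0928), with a difference of -2.63 (limma adjusted p = 0.00241) from its change of 3.54 in NT cells. In TKO cells IL33 rose by 0.87 (limma adjusted p = 0.0322), and the NKO change minus the TKO change was not called (0.04).

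The NKO change differed from the TKO change at 20 genes (0.15%), 9 higher (0.0677%) and 11 lower (0.0827%). MT2A (difference 1.12, limma adjusted p = 0.00129) and ART4 (-2.31) were called with any 1 of the 8 libraries of these lines left out. ART4, which carries the Dombrock blood group, had 1.02 and 0.684 TPM on DLL4 and 0.0777 and 0.0484 TPM on IgG in NKO cells, against 28.5 and 29.8 TPM on DLL4 and 2.20 and 2.83 TPM on IgG in TKO cells. ART4 thus stayed at or below 1.02 TPM in NKO cells, where log2(TPM + 1) understates a change. Its difference therefore does not show a smaller relative rise in NKO cells. ASNS, the asparagine synthetase gene, had 55.9 and 49.5 TPM on DLL4 and 61.0 and 58.2 TPM on IgG in NKO cells, against 18.2 and 15.4 TPM on DLL4 and 58.1 and 63.5 TPM on IgG in TKO cells (difference 1.62). Leaving out DLL4 library 1 of the NKO line reduced the 20 calls to 2.

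There were 16 genes called in NKO cells and not called in the same direction in NT cells, of which 9 are protein coding and 4 were called in TKO cells. For 5 of the 16 the difference between the lines was itself called. Among these 5, RNA5SP242 and G0S2 passed the filter only through NKO libraries, so their called differences add no support. G0S2, which encodes an inhibitor of fat-cell triglyceride lipase, had 20.8 and 15.7 TPM on DLL4 and 44.2 and 41.9 TPM on IgG in NKO cells, while every group mean in TKO and NT cells was at or below 0.0832 TPM. At these levels G0S2 could show no fall in NT cells, so its called difference from NT adds no support beyond them. It fell by 1.20 ± 0.17 in NKO cells (change -1.20, limma adjusted p = 0.0066; difference from NT -1.26, limma adjusted p = 0.0425), and lost the call without DLL4 library 2 (limma adjusted p = 0.108) or IgG library 1 (limma adjusted p = 0.0871). The vesicle-scission gene DNM1 had 3.74 and 5.002 TPM on DLL4 and 0.953 and 0.910 TPM on IgG in NKO cells, against 5.38 and 3.75 TPM on DLL4 and 4.53 and 3.92 TPM on IgG in NT cells. Its change of 1.47 ± 0.19 in NKO cells (limma adjusted p = 0.00488; difference from NT 1.39, limma adjusted p = 0.0475) was not called without DLL4 library 2 (limma adjusted p = 0.0784). Neither difference from NT was called once any 1 of the 8 libraries was left out (limma adjusted p up to 0.148 for G0S2 and 0.178 for DNM1). On IgG, DNM1 was lower in NKO than in NT cells, and on DLL4 the ranges of the lines overlapped.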

How the data were processed

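RNA-seq of 12 TeloHAEC libraries (6 groups of 2) was used as TPM per gene symbol, as deposited by the authors; per the submitters' processing notes, the tools were kallisto and edgeR and the build was hg38, with versions and annotation not given in the sources used here. TPM summed to 974989 to 977130 per library over 35587 symbols and keep no depth, so no counting interval is given and precision is the spread between the 2 libraries of a group. For NT and TKO the table numbers columns 2 and 3 where the labels have 1 and 2, and libraries are called by column number.

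Genes with at least 1 TPM in at least 2 libraries (13299) entered limma 3.58.1 (R 4.3.3) as log2(TPM + 1), with 1 mean per line and coating over all 12 libraries, empirical Bayes with a variance trend, two-sided tests, Benjamini-Hochberg adjustment over all genes, threshold 0.05 (6 residual degrees of freedom, 10.8 after moderation). The code was tested on simulated data. With 1 library left out, the lone library of its group is assumed to vary like the others. Positions and biotypes are from GENCODE 29 (103 of the 104 genes called in NKO cells matched) and promoters from RefSeq, GRCh38.p14. Python 3.11.15 with matplotlib 3.10.9 drew the figures.

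The comparison, the 20 gene lists and the naming rule were chosen with earlier results of these data known. The rule names Notch receptors, ligands and targets, the 20 largest called changes per direction at 5 TPM or more without overlap, called list members with up to 4 leading genes per list, up to 20 calls by p absent from NT cells or stable against leaving out a library, and the 12 largest called differences per direction. Alternatives were a pseudocount of 0.1, no filter, a mean of at least 5 TPM, median-of-ratios and quantile scaling, leaving out KPNA2P2, a constant prior variance, a block for the replicate number, fits restricted to the lines compared, and leaving out each library.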

Additional observations from a re-analysis of the deposited data

Results flagged for a closer look

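These genes were picked out because a limma test of the difference between the DLL4 responses of 2 lines passed the threshold. The values are log2 differences, the NKO change minus the change in the other line. They come from log2(TPM + 1), which shrinks changes near or below 1 TPM. Where NKO cells lie that low and the other line does not, as at HES4, TFF1 and ART4, part or all of the difference can come from this. Each target has 1 line, so the target and the line cannot be told apart, and no cause was tested.

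Against NT cells, the NKO change was the more negative at EFNB2 (-3.17), ACP5 (-2.84), AC009093.8 (-2.67), IL33 (-2.63), GJA4 (-2.61), TFF1 (-2.53), RND1 (-2.47), MASP1 (-2.38), SLC46A3 (-2.20), ATP6V0D2 (-1.99), DLL4 (-1.95), SLC1A4 (-1.89), HES4 (-1.79), HEY2 (-1.65), FLT1 (-1.02) and CDKN1A (-0.65). ACP5, an acid phosphatase of bone-resorbing cells, had 1.19 and 0.931 TPM on DLL4 and 0.402 and 0.215 TPM on IgG in NKO cells, against 33.8 and 22.8 TPM on DLL4 and 1.70 and 1.41 TPM on IgG in NT cells. In TKO cells ACP5 was near the NKO levels, with 1.72 and 1.71 TPM on DLL4 and 0.386 and 0.338 TPM on IgG. ACP5 was not called in NKO cells, and its difference was called with any 1 of the 8 libraries left out. The NKO change was the more positive at FST (2.31), CA2 (1.76), AC116533.1 (1.70), MFNG (1.66), PTPN7 (1.64), SYCE1L (1.47), TMEM158 (1.39), COLEC10 (1.37), MT2A (1.36), BCOR (1.28), CATSPER1 (1.27) and LNP1 (1.26). EFNB2, GJA4, ATP6V0D2 and COLEC10 stayed below 1 TPM in all NKO libraries and passed the filter only through other lines. Their called differences add no support beyond the levels themselves. With 1 of the 8 libraries left out in turn, the differences of TFF1, CA2, PTPN7, CATSPER1 and LNP1 were called in 0 of the 8 fits, those of MASP1, AC116533.1, TMEM158, COLEC10 and BCOR in 1, that of CDKN1A in 2, those of ATP6V0D2 and FLT1 in 4, that of HES4 in 5 and that of SYCE1L in 7. The others were called in all 8.

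Against TKO cells, the NKO change was the more negative at PDE1A (-3.11), ART4 (-2.31), EFNB2 (-2.23), TMOD1 (-1.60), CASP17P (-1.58), KLHDC8B (-1.29), NR2F1 (-1.10), IRF1 (-1.09), MEIS2 (-0.97) and FAM107A (-0.88), and the more positive at ASNS (1.62), MT1E (1.42), FST (1.38), RGCC (1.13), MT2A (1.12), HMGB1P6 (1.05), PSAT1 (1.03), PLAT (0.72) and HOXB6 (0.70). With 1 library left out in turn, IRF1 and HOXB6 were called in 0 of the 8 fits, MEIS2 and HMGB1P6 in 1, CASP17P, RGCC, PSAT1 and PLAT in 2, TMOD1, NR2F1, MT1E and FST in 3, KLHDC8B in 4, EFNB2 and FAM107A in 6, PDE1A and ASNS in 7, and ART4 and MT2A in all 8. PDE1A, a cyclic nucleotide phosphodiesterase, had 0.0123 and 0.0238 TPM on DLL4 and 0.0420 and 0.0587 TPM on IgG in NKO cells, against 10.8 and 6.42 TPM on DLL4 and 0.0831 and 0.149 TPM on IgG in TKO cells. Like EFNB2, PDE1A passed the filter only through the other lines, so its called difference adds no support beyond these levels. MT1E was listed at 0 in all 4 NKO libraries, so its difference comes from the TKO change of -1.42. It passed the filter only through the TKO libraries, so its called difference adds no further support. HMGB1P6 is a pseudogene and CASP17P a further one, and reads of pseudogenes can be shared with their parent genes.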

How the results depend on the processing

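No called gene named from the NKO response changed direction under any setting tried. Scaling moved the median NKO change by less than 0.1 (0.0104 as deposited, 0 by median of ratios, -0.0001 by quantiles, -0.0047 without KPNA2P2). The NKO count of 104 stayed within 1.5 times under both scalings (117 and 127), without KPNA2P2 (117), with a pseudocount of 0.1 (94), without a filter (73), with a mean of at least 5 TPM (124) and without a variance trend (70). Of the 67 calls named from the NKO response, 65 held under either scaling, 66 without KPNA2P2, 57 with the smaller pseudocount, 39 without a filter, 50 without a variance trend and 31 to 49 with 1 library left out. The count was 37 to 85 with 1 library left out and 0 with limma on the 4 NKO libraries alone (865 at an unadjusted p under 0.05). The NKO minus NT count of 118 was 78 without a filter, 70 from the 8 libraries of those lines and 31 to 72 with 1 library left out. The NKO minus TKO count of 20 was 33 without a filter, 0 from limma on the 8 libraries of those lines (681 at an unadjusted p under 0.05) and 2 to 19 with 1 library left out. The cause of these shifts was not tested, beyond fewer samples giving fewer degrees of freedom. With the replicate number as a block within each line, the counts were 114 for NKO (80 of the 104 called), 79 for NKO minus NT and 18 for NKO minus TKO. The numbers were not established as pairs: deviations of same-numbered libraries correlated at 0.279 in NKO, 0.0165 in TKO and -3e-04 in NT cells over 13299 genes. TPM without depth limit what can be said of genes below 1 TPM.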

Other observations

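Among the 104 genes called in NKO cells, 7 were at 0 TPM in both libraries of 1 coating. RNA5SP242, RNA5SP370, RNA5SP411 and RNA5SP412, pseudogenes of the 5S ribosomal RNA, were listed at 0 in both DLL4 libraries, with 2.62 and 3.29 TPM on IgG at RNA5SP242. RNA5SP242 was at 0 in every library outside IgG-coated NKO cells, so it passed the filter only through that group. It is counted among the 104 calls and among the called differences from NT and TKO, but its calls add no support. Such entries have near-identical copies, so their split between copies is uncertain. AP000553.7 had 2.39 and 5.61 TPM on DLL4 and was listed at 0 in both IgG libraries.

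Markers of other cell types gave no call in NKO cells. Of 12 leukocyte markers 11 stayed below 1 TPM in all 4 NKO libraries and CD2 was listed at 0, with a summed level of 1.34 and 2.38 TPM on DLL4 and 1.40 and 0.84 TPM on IgG. Of 8 epithelial markers, 3 keratin genes were tested, KRT5 and KRT14 were listed at 0, and the summed level was 906 and 1340 TPM on DLL4 and 941 and 1280 TPM on IgG, with overlap between the coatings.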
